A study of Mus musculus with 6 samples.

Results

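Long-chain fatty acids are burned in mitochondria, and the 10 genes described here encode the carnitine shuttle that carries them in and the core enzymes that shorten them: Cpt1a, Cpt2, Slc25a20, Acadm, Acadl, Acadvl, Hadha, Hadhb, Acaa2 and Etfdh. They were chosen by gene symbol, and all 10 were found among the 34714 genes measured. RNA of 6 mouse kidney samples was sequenced, 3 labelled Hspa8 knockout and 3 labelled WT, the wild-type, all from kidney tissue of mice aged 8 weeks and fed normal chow. The product of Hspa8 is HSC70, a chaperone present in unstressed cells, and the series asks how it bears on the sterol sensor SCAP, its retention by INSIG, and lipid build-up in tubule cells. Per the growth protocol, mice with both copies of Hspa8 floxed and Cdh16-Cre mice were obtained, and the Cdh16 promoter drives Cre in the epithelium of kidney tubules, so other kidney cells would keep the gene. The floxed line is on C57BL/6J, the strain of the wild-type mice, which came from another supplier, and the background of the Cre line is not given; supplier, Cre and floxed allele cannot be told apart from the loss of Hspa8. Levels are given as FPKM, fragment counts scaled to transcript length and to the mapped total, so that different genes can be compared per length. Where 3 values of a group follow each other, they belong to replicates 1, 2 and 3 in that order.

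In each round of beta-oxidation an acyl-CoA dehydrogenase makes a double bond, a hydratase adds water, a hydroxyacyl dehydrogenase oxidises again and a thiolase cuts off acetyl-CoA. CPT1 loads the acyl chain onto carnitine at the outer mitochondrial membrane, a carrier exchanges acylcarnitine for carnitine across the inner membrane, and CPT2 reloads the chain onto coenzyme A inside. The proximal tubule is known to depend on this pathway for its ATP, and its genes are known targets of the nuclear receptor PPARA, which binds direct repeats of the hexamer AGGTCA spaced by 1 base.

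No member passed the test across all genes. With limma on log2(FPKM + 1) and Benjamini-Hochberg adjustment over 12174 tested genes, 0 of the 10 members had an adjusted p under 0.05, as did 0 of all tested genes (0% called). At an unadjusted p under 0.05, 0 of the 10 members were called in either direction, against 0.953% of tested genes called higher and 4.21% called lower in the knockout. All 10 members passed the filter on low values, a mean of at least 1 FPKM. All 10 had a log2 fold change above 0, which 35.1% of tested genes had, and their median was 0.0795 against -0.0399 for all tested genes. The share of tested genes above 0 depended on the scaling. Equalising the sums of the libraries made it 49.8% and equalising their medians 53.5%, and all 10 members stayed above 0. Without wild-type replicate 3, 7 of the members were above 0, and 5 were when knockout replicate 2 was left out as well. The 3 knockout values lay above the 3 wild-type values for 2 of the 10 members, Cpt2 and Acadl, against 2.01% of tested genes, and below them for 0 members, against 8.57% of tested genes. In bulk tissue, fewer cells of a type and less RNA per cell cannot be told apart. No label states that each sample is a different mouse, and the p-values therefore reflect the spread among libraries, which may be technical.

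The promoter windows of Cpt2 and Acadl, the members whose groups did not overlap, and that of Hadhb, which overlaps the window of its neighbour Hadha, are given from RefSeq (GRCm38.p6), 250 bases before to 50 bases after the start, 5′ to 3′ on the strand of the named gene, with the motif matches described next in capitals. The Cpt2 window is chr4:107923540-107923839, minus strand. The Acadl window is chr1:66863260-66863559, minus strand. The Hadhb window is chr5:30155003-30155302, plus strand.
Cpt2: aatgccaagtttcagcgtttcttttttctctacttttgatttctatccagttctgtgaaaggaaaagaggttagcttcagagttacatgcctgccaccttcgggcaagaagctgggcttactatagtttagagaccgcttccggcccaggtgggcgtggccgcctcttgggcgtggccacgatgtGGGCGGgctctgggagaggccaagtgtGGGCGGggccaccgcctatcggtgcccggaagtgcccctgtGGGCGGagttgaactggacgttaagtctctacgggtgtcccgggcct
Acadl: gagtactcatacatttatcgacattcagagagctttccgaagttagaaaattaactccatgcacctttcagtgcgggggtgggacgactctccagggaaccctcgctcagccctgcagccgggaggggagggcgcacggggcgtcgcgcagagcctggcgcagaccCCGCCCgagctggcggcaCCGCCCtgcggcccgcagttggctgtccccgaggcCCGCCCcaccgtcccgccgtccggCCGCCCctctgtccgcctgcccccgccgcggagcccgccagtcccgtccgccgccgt
Hadhb: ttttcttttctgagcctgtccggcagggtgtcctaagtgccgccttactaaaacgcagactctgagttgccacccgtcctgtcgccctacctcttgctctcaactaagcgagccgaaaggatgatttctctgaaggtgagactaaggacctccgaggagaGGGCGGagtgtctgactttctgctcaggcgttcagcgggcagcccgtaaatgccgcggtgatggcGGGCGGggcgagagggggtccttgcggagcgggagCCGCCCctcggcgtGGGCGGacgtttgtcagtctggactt

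Windows were at hand for 9 of the 10 members, and Acaa2 was not matched. The first listed window of each gene was used. That of Cpt1a (chr19:3323051-3323350, plus strand) lies inside the gene span given below, which begins at 3322326, so it surrounds a start within that span. Both strands were searched for AGGTCA, for its direct repeat spaced by 1 base with up to 2 mismatches in the 12 repeat bases, for TCAAGGTCA, for the GC box GGGCGG, for CCAAT and for TATAAA. TCAAGGTCA contains AGGTCA, so those matches can overlap. All capitals in the 3 windows above mark GC boxes, in either orientation: Cpt2 had 3, Acadl 4 and Hadhb 4. A GC box was present in 7 of the 9 windows, against 63.6% of 9809 promoters of tested genes. AGGTCA was present in 3 of 9, those of Cpt1a, Acadm and Acadvl, against 12.7%, and the spaced repeat in 1 of 9, that of Slc25a20, from 7 to 19 bases into the transcript, against 3.27%. CCAAT was found in 2 of 9 against 38.2%, TATAAA in 0 of 9 against 7.3%, and TCAAGGTCA in 0 of 9 against 0.245%. The start sites of Hadha and Hadhb lie 272 bases apart on opposite strands, and their windows share 228 bases. The GC box of Hadha, at -188 to -183 from its start, is the same site as the Hadhb box at -90 to -85. This 1 site is counted in both windows. The G and C content of the 9 windows ran from 50.7% in Acadvl to 70.3% in Acadl, with a median of 60.7% over tested genes. These matches are descriptions of letters and not of bound sites.

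**Figure D1:**
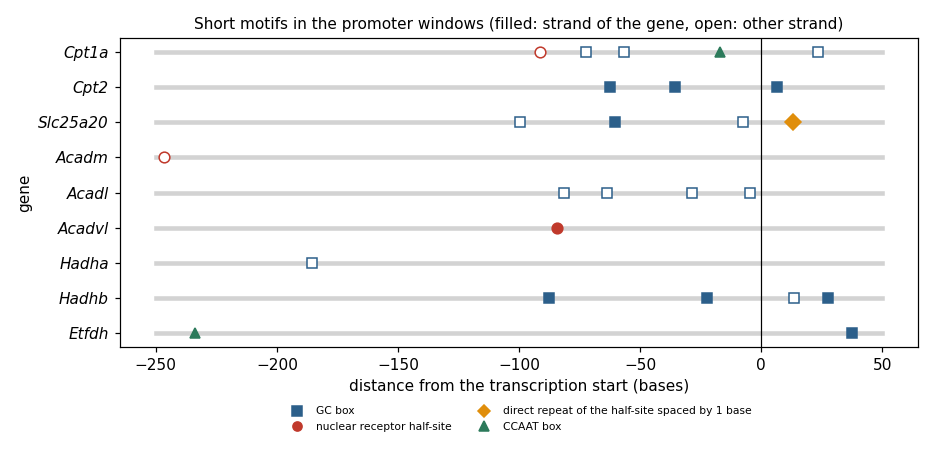
Motif matches in the RefSeq promoter windows of 9 members, one row per gene, with the distance from the transcription start in bases on the x axis; filled symbols are on the strand of the gene and open ones on the other strand. GC boxes are drawn in 7 of the 9 rows, AGGTCA (the nuclear receptor site) in those of Cpt1a, Acadm and Acadvl, and the spaced repeat in that of Slc25a20.

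Hspa8, the gene labelled as knocked out (chromosome 9, 40801276 to 40805202), stood at 650, 699 and 781 FPKM in knockout kidneys and at 1058, 1092 and 1318 FPKM in wild-type kidneys, with no overlap (log2 fold change -0.70, standard error 0.122, limma adjusted p = 0.866). FPKM of a library summed to 381586 to 416761 in the knockout and 403895 to 417123 in wild-type, and read depth is unknown. Kidney markers were present in every library: the 10 proximal tubule genes summed to 4795 to 5257 FPKM in the knockout and 4653 to 5041 FPKM in wild-type. The first principal component held 47.8% of the variance. On it wild-type replicate 2 lay at 0.139, knockout replicates 1 and 3 at -9.51 and -12.1, and wild-type replicate 1 at -11.7. Wild-type replicate 3 and knockout replicate 2 were highest, at 22.7 and 10.4. With genes in 4 equal bins of transcript length, the shortest bin was high in them (a median of 0.0947 in knockout replicate 2 and 0.129 in wild-type replicate 3, in log2 units relative to the 6 libraries) and the longest bin was low (-0.0643 and -0.0595 in the same order). Markers of adipocytes and skeletal muscle were highest in wild-type replicate 3. The 6 adipocyte genes summed to 1.9 to 5.5 FPKM in the knockout and to 1.7, 2.9 and 19.4 FPKM in wild-type kidneys, and Lep and Ucp1 were listed at 0 in some libraries. The 4 muscle genes summed to 4.9 to 5.5 FPKM in the knockout and to 2.8, 4.0 and 13.5 FPKM in wild-type kidneys. The part of these differences in the results below was not tested beyond leaving out libraries and removing the trend on transcript length.

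Of the carnitine shuttle, the transcript of the enzyme on the inner side of the membrane differed most from wild-type relative to its spread. Cpt2 (chromosome 4, 107903982 to 107923589) encodes carnitine palmitoyltransferase 2, which hands the acyl chain back to coenzyme A. It had 71.3, 69.0 and 69.3 FPKM in knockout kidneys and 60.2, 63.2 and 63.5 FPKM in wild-type kidneys. All knockout libraries lay above all wild-type ones, by 1.12-fold in the means (69.9 ± 1.23 FPKM in the knockout and 62.3 ± 1.84 FPKM in wild-type, SD, n = 3 each). The log2 fold change was 0.16, with standard error 0.0772 and a 95% interval of -0.02 to 0.34 (limma adjusted p = 0.973). Its spread between replicates was among the smallest of all tested genes: a pooled SD of 0.0346 on the log2 scale, with 1.01% of tested genes below it. Leaving out any 1 library kept the log2 fold change between 0.14 and 0.18.

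Cpt1a (chromosome 19, 3322326 to 3385735) encodes the liver-type CPT1, the malonyl-CoA-sensitive entry step. It stood at 118, 93.7 and 119 FPKM in knockout kidneys and at 111, 117 and 86.2 FPKM in wild-type kidneys. The groups overlapped, and the low library of each was knockout replicate 2 and wild-type replicate 3. Its longest transcript has 4317 bases, in the third of 4 length bins, whose median in these libraries was 0.0017 and -0.0011 in log2 units. The log2 fold change was 0.08, with standard error 0.145 and an interval of -0.26 to 0.41, and it was -0.06 once wild-type replicate 3 was left out and 0.19 once knockout replicate 2 was (limma adjusted p = 0.998 with all libraries). Slc25a20 (chromosome 9, 108662136 to 108684642) encodes the carnitine-acylcarnitine translocase. It had 37.3, 39.9 and 34.2 FPKM in knockout kidneys and 30.6, 36.4 and 36.2 FPKM in wild-type kidneys, and the groups overlapped because knockout replicate 3 lay below wild-type replicates 2 and 3 (log2 fold change 0.11, standard error 0.102). The value was 0.03 without wild-type replicate 1. The level of Cpt1a over that of Cpt2 was 1.66, 1.36 and 1.72 in knockout kidneys and 1.84, 1.86 and 1.36 in wild-type kidneys, which overlapped.

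**Figure D2:**
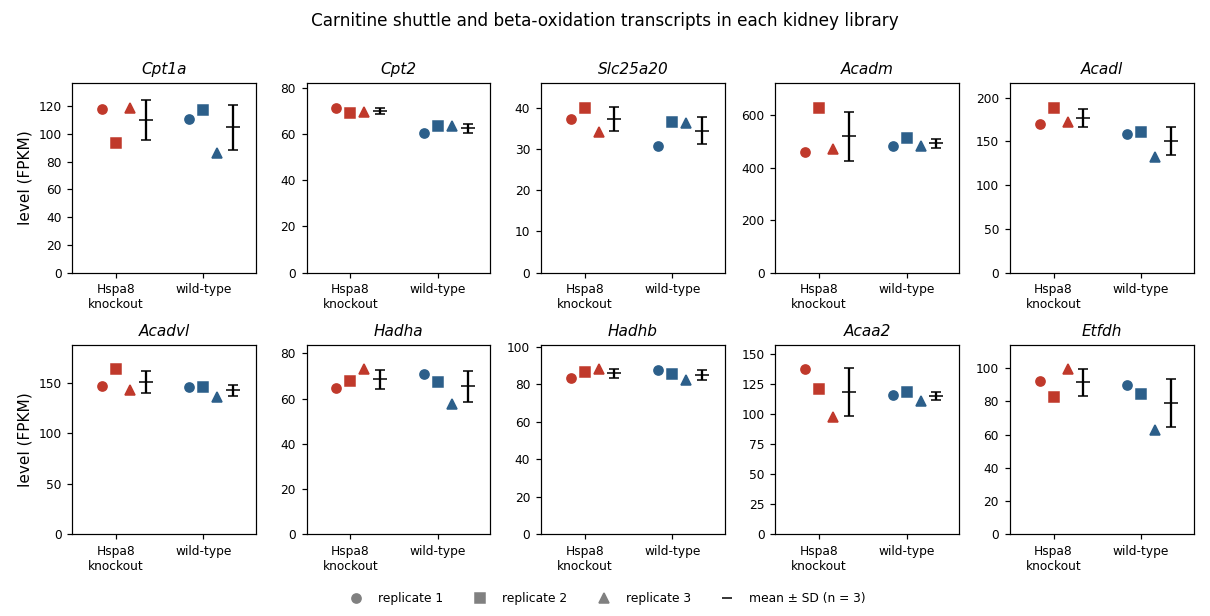
Level in FPKM (y axis, from 0) of each of the 10 members in the 3 Hspa8 knockout libraries (red, left) and the 3 wild-type libraries (blue, right), with the mean and SD in black. For Cpt2 (69.0 to 71.3 against 60.2 to 63.5 FPKM) and Acadl (169 to 188 against 132 to 161 FPKM) the groups do not overlap, and for the other 8 they do.

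The acyl-CoA dehydrogenases catalyse the first oxidation and are sorted by chain length. Acadl (chromosome 1, 66830839 to 66863309), the long-chain enzyme, had 169, 188 and 172 FPKM in knockout kidneys and 158, 161 and 132 FPKM in wild-type kidneys. All knockout libraries lay above all wild-type ones, and the means were 176 ± 10.3 FPKM in the knockout and 150 ± 15.9 FPKM in wild-type (SD, n = 3 each). This was the largest log2 fold change of the 10, 0.23 (standard error 0.105) and an interval of -0.01 to 0.48 (limma adjusted p = 0.971). It was 0.14 without wild-type replicate 3, its lowest library, and 0.10 without that library and knockout replicate 2.

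Acadm (chromosome 3, 153922353 to 153944643), the medium-chain enzyme, was the most abundant member, at rank 74 of the 12174 tested genes by mean FPKM. It had 459, 629 and 473 FPKM in knockout kidneys and 482, 514 and 482 FPKM in wild-type kidneys. A single library, knockout replicate 2, lay above the wild-type range, and the other 2 knockout libraries lay below it. The log2 fold change was 0.06, with standard error 0.132 (limma adjusted p = 0.998), and it was -0.08 without knockout replicate 2. Acadvl (chromosome 11, 70010183 to 70015428), the very-long-chain enzyme of the inner membrane, had 147, 163 and 143 FPKM in knockout kidneys and 146, 146 and 136 FPKM in wild-type kidneys, which overlapped (log2 fold change 0.08, standard error 0.0898, limma adjusted p = 0.998). It was 0.03 without knockout replicate 2. Of the summed FPKM of these dehydrogenases Acadm held 59.2% to 64.1% in the knockout and 61.4% to 64.2% in wild-type, and Acadl 19.2% to 21.9% in the knockout and 17.6% to 20.1% in wild-type.

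The remaining steps on long chains belong to the trifunctional protein, an inner-membrane complex whose alpha subunit (Hadha) carries the hydratase and hydroxyacyl dehydrogenase and whose beta subunit (Hadhb) carries the thiolase. The neighbouring genes Hadha (chromosome 5, 30119423 to 30154980) and Hadhb (chromosome 5, 30155253 to 30184593) start on opposite strands, and 228 bases of the Hadhb window printed above also lie in that of Hadha, which held 1 GC box. Hadha had 64.9, 67.6 and 72.9 FPKM in knockout kidneys and 71.1, 67.5 and 57.7 FPKM in wild-type kidneys. Hadhb had 83.2, 86.8 and 88.0 FPKM in knockout kidneys and 87.5, 85.6 and 82.5 FPKM in wild-type kidneys. Both overlapped between groups, with log2 fold changes of 0.07 (standard error 0.103) and 0.01 (standard error 0.0790), and both were below 0 without wild-type replicate 3, at -0.02 for Hadha and -0.01 for Hadhb. The 95% interval of Hadhb, -0.17 to 0.19, covers changes of 0.8896-fold to 1.145-fold on the FPKM + 1 scale. Hadha over Hadhb was 0.780, 0.779 and 0.829 in knockout kidneys and 0.812, 0.788 and 0.700 in wild-type kidneys. The ratio was lowest in wild-type replicate 3, where Hadha was lower against the mean of the libraries than Hadhb. Their longest transcripts have 4017 bases (Hadha) and 2048 bases (Hadhb), in the third and second of 4 length bins. In that library the medians of these bins were -0.0011 and 0.0371 in log2 units. The part of transcript length in this ratio was not tested.

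Acaa2 (chromosome 18, 74779212 to 74806207), the mitochondrial thiolase of medium chains, varied more among knockout than among wild-type libraries. It had 137, 121 and 97.9 FPKM in knockout kidneys and 116, 118 and 111 FPKM in wild-type kidneys, so the knockout range enclosed the wild-type one. The log2 fold change was 0.03, with standard error 0.126 (limma adjusted p = 0.998), and -0.08 without knockout replicate 1. Etfdh (chromosome 3, 79603788 to 79628767) encodes the electron transfer flavoprotein dehydrogenase, which passes electrons from the acyl-CoA dehydrogenases to ubiquinone. It had 92.1, 82.8 and 99.2 FPKM in knockout kidneys and 90.1, 84.6 and 62.5 FPKM in wild-type kidneys. Its log2 fold change of 0.22 (standard error 0.146, limma adjusted p = 0.998) was near that of Acadl, but its groups overlapped. Its size depended on the library left out: 0.06 without wild-type replicate 3, 0.29 without knockout replicate 2 and 0.32 without wild-type replicate 1. Without both wild-type replicate 3 and knockout replicate 2 it was 0.13.

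By mean level per length the members ran from Acadm through Acadl, Acadvl, Acaa2, Cpt1a, Hadhb, Etfdh, Hadha and Cpt2 to Slc25a20, at ranks 74, 374, 427, 569, 618, 770, 774, 975, 991 and 1850 of the tested genes. Neighbours in this order often did not differ beyond their spread: Acaa2 (97.9 to 137 FPKM in the knockout, 111 to 118 FPKM in wild-type) overlapped Cpt1a (93.7 to 119 FPKM in the knockout, 86.2 to 117 FPKM in wild-type), and Hadhb overlapped Etfdh. Acadm in its lowest library, at 459 FPKM, stood above Acadl in its highest, at 188 FPKM, and Slc25a20 lay below Cpt2 in every library.

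Across libraries the members were alike in some features and differed in others. The library with the highest value was a knockout library for 10 of 10 members, against 36.1% of tested genes. Wild-type replicate 3 was the lowest for 6 of 10, against 24.3%. Cpt2 and Slc25a20 were lowest in wild-type replicate 1, Acadm in knockout replicate 1 and Acaa2 in knockout replicate 3. Wild-type replicate 3 was also lowest for 5 of 6 other acyl-CoA dehydrogenases and 8 of 9 transcripts of other mitochondrial proteins, both described below. A knockout library was highest for 3 of those 6 and 3 of those 9. Over all 37 further pathway genes tested, also described below, it was highest for 26 (70.3%), and for 7 of 10 proximal tubule genes. A high knockout library was thus not particular to the members. The mean of the 10, in log2 units relative to the 6 libraries, was 0.0528, 0.0790 and 0.0269 in knockout kidneys and -0.0192, 0.0158 and -0.155 in wild-type kidneys. Wild-type replicate 3 alone lay more than 0.1 from 0. Which members were high in a given knockout library differed: Acadm and Acadl peaked in knockout replicate 2, Acaa2 and Cpt2 in knockout replicate 1, and Etfdh, Hadha and Cpt1a in knockout replicate 3. When the trend of each library on transcript length was removed, a step chosen after the data were seen, the median over the members was 0.124 against 0.0057 for all tested genes, and 4 of 10 members (Cpt2, Slc25a20, Acadl and Acadvl) had groups that did not overlap, against 5.4% of tested genes. None was called then (lowest limma adjusted p of a member 0.888).

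**Figure D3:**
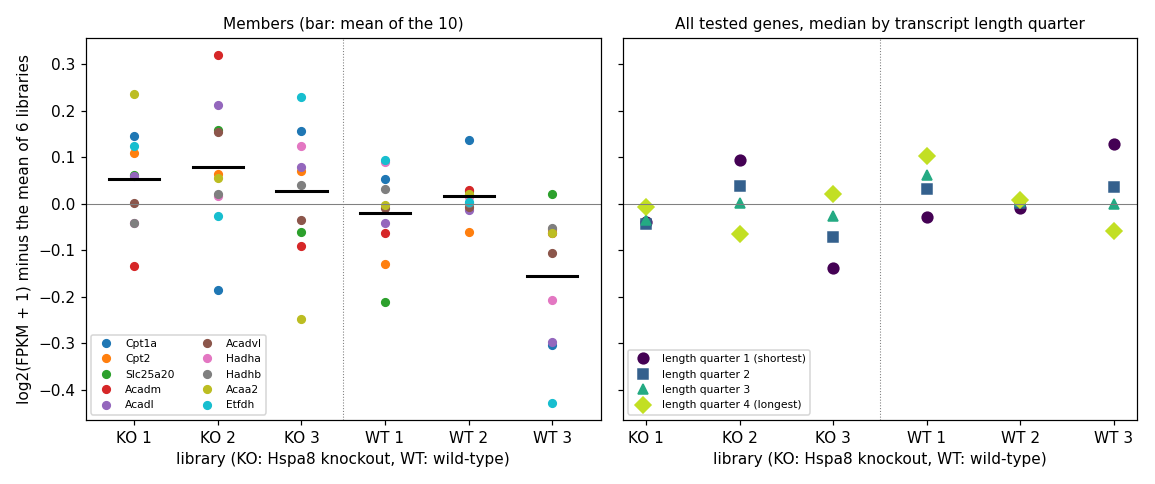
Left, log2(FPKM + 1) of each member minus its mean over the 6 libraries, with the mean of the 10 as a bar; right, the median of all tested genes in 4 bins of transcript length on the same scale, with knockout libraries (KO) left of wild-type libraries (WT). The bar of wild-type replicate 3 lies at -0.155, and in that library and in knockout replicate 2 the shortest bin lies highest (0.129 and 0.0947) and the longest lowest.

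The 5 tested genes whose pattern over the 6 libraries came closest to the mean pattern of the members, both scaled to an SD of 1, were Slc35d2, Gstz1, Rpa2, Suclg1 and Vil1. Their root mean square differences were 0.173, 0.187, 0.204, 0.205 and 0.209 SD, against a median of 1.36 SD over the genes compared. Gstz1, an enzyme of tyrosine breakdown, had 167, 175 and 166 FPKM in knockout kidneys and 164, 167 and 156 FPKM in wild-type kidneys. Suclg1, the alpha subunit of succinyl-CoA ligase in the citric acid cycle, had 197, 207 and 199 FPKM in knockout kidneys and 194, 191 and 167 FPKM in wild-type kidneys. The members' mean pattern was lowest in wild-type replicate 3, so genes chosen for likeness to it are low there by choice.

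Of 39 further genes of the pathway, 37 passed the filter, and 0 passed the test in either direction. Of these 27 lay above 0 and 10 below, with a median log2 fold change of 0.0507 (18 above 0 and a median of -0.0026 without wild-type replicate 3). The groups did not overlap, with the knockout higher, for 1 of the 37, near the 2.01% of all tested genes. This was Decr1, the dienoyl-CoA reductase that unsaturated fatty acids need. Decr1 had 93.3, 93.6 and 84.1 FPKM in knockout kidneys and 79.4, 81.7 and 76.8 FPKM in wild-type kidneys, all knockout libraries being the higher ones (log2 fold change 0.18, standard error 0.0848, limma adjusted p = 0.973). Its log2 fold change stayed between 0.16 and 0.23 when any 1 library was left out.

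The list of carnitine supply and other acyltransferases showed no common direction, with 3 of 6 tested genes above 0. Slc22a5, the plasma membrane carnitine transporter, had 105, 78.8 and 93.0 FPKM in knockout kidneys and 103, 102 and 86.6 FPKM in wild-type kidneys. The muscle-type Cpt1b stood far below Cpt1a, at 7.57, 11.9 and 7.04 FPKM in knockout kidneys and 8.11, 10.7 and 11.4 FPKM in wild-type kidneys (log2 fold change -0.19, standard error 0.193). Cpt1a over Cpt1b ranged from 7.87 to 16.9 in the knockout and from 7.54 to 13.7 in wild-type. Aldh9a1, an aldehyde dehydrogenase of carnitine synthesis, had a log2 fold change of 0.08, and Slc25a29, a mitochondrial carrier of basic amino acids, 0.23 at 1.12 to 2.2 FPKM over the 6 libraries. Bbox1, the last enzyme of carnitine synthesis, and the brain-type Cpt1c were under 1 FPKM in every library and were not tested.

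Among the other dehydrogenases 5 of 6 lay above 0, with Acad11 at 0.23 (standard error 0.190), Acads, the short-chain enzyme, at 0.07 and Acadsb at -0.05. Acad11 was lowest in wild-type replicate 3, at 43.7 FPKM, and without it the log2 fold change was 0.02. Of the hydratase, hydroxyacyl dehydrogenase, thiolase and auxiliary enzymes 6 of 7 lay above 0, the highest list median at 0.117. Besides Decr1, Hadh, the short-chain hydroxyacyl dehydrogenase, had 301 ± 8.48 FPKM in the knockout and 274 ± 39.9 FPKM in wild-type (SD, n = 3 each), and Eci2, an enoyl-CoA isomerase, had a log2 fold change of 0.12. The electron transfer flavoprotein subunits, which feed Etfdh, were abundant: Etfa had 238, 247 and 238 FPKM in knockout kidneys and 243, 234 and 203 FPKM in wild-type kidneys (log2 fold change 0.09), and Etfb had 386 ± 60.5 FPKM in the knockout and 384 ± 43.6 FPKM in wild-type (SD, n = 3 each). Etfrf1, a regulator of that flavoprotein, had 0.05 and Etfbkmt, which methylates its beta subunit, -0.06. The mitochondrial thioesterases Acot2, Acot9 and Acot13, which release free fatty acid, had 0.13, 0.05 and -0.03, the last of which turned to 0.01 when the sums of the libraries were equalised and to 0.02 when their medians were.

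Regulators of the pathway also did not pass, with 8 of 11 above 0. Ppara, the receptor, had 17.8, 12.3 and 17.9 FPKM in knockout kidneys and 20.0, 16.9 and 13.1 FPKM in wild-type kidneys (log2 fold change -0.05, standard error 0.181). Ppargc1a, its coactivator, had 10.9 ± 1.16 FPKM in the knockout and 11.6 ± 0.452 FPKM in wild-type, and Esrra, the oestrogen-related receptor alpha, 46.4 ± 0.368 FPKM in the knockout and 44.7 ± 1.22 FPKM in wild-type (SD, n = 3 each). Of the regulators with the smallest p, Acacb, the carboxylase that makes the malonyl-CoA that blocks CPT1, had a log2 fold change of 0.20, Ppargc1b, a second coactivator, 0.15 and Sirt5, a mitochondrial deacylase, 0.12.

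**Figure D4:**
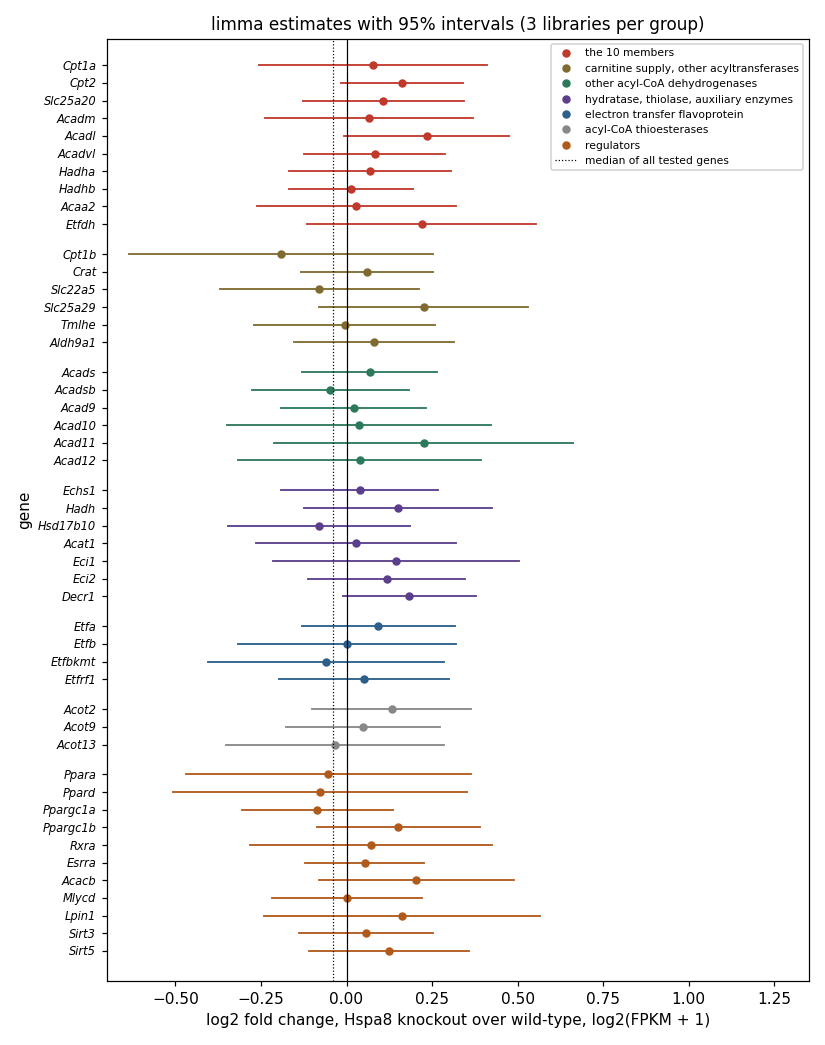
limma log2 fold change (knockout over wild-type, x axis, points) with its 95% interval (lines) for the 10 members and the 37 other tested genes of the pathway, grouped by role; the dotted line is the median of all tested genes, -0.0399. Every interval includes 0, and those of Cpt2, Acadl and Decr1 come closest to leaving it out, with lower bounds of -0.02, -0.01 and -0.01.

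Transcripts of other mitochondrial proteins, listed as markers of mitochondrial content, were compared at the RNA level. Of the 9 tested genes, 8 lay above 0 with a median log2 fold change of 0.0400, and 8 were lowest in wild-type replicate 3. Sdha, a subunit of succinate dehydrogenase, had 259, 245 and 303 FPKM in knockout kidneys and 287, 259 and 210 FPKM in wild-type kidneys, and Cs, citrate synthase, 99.0 ± 2.67 FPKM in the knockout and 97.7 ± 5.39 FPKM in wild-type (SD, n = 3 each). The proximal tubule list had 5 of 10 genes above 0 and a median of -0.0097. Of 3 further lists, 0 of 6 endothelial genes, 0 of 5 podocyte genes and 0 of 4 stromal genes lay above 0. Their medians were -0.33, -0.30 and -0.26. Other kidney cells were mixed. Above 0 lay 2 of 4 genes of the thick ascending limb (median -0.03) and 1 of 4 of the distal convoluted tubule (-0.02). For principal cells it was 2 of 4 (0.01), for intercalated cells 1 of 4 (-0.09) and for immune cells 1 of 4 (-0.11). Among all tested genes 35.1% lay above 0. None of the genes on these lists passed after adjustment (limma). All 6 endothelial genes had an unadjusted limma p under 0.05 with the knockout lower, against 4.21% of tested genes. For 5 of them the knockout values lay below all wild-type values, against 8.57% of tested genes. Of the podocyte genes 1 of 5 had such a p and 0 had groups apart. Of the stromal genes 1 of 4 had such a p and 1 had groups apart. Foxi1, 1 of 4 intercalated cell genes, and Ptprc, 1 of 4 tested immune cell genes, had such a p and groups apart with the knockout lower. Slc13a3, 1 of 10 proximal tubule genes, had an unadjusted limma p under 0.05 and groups apart with the knockout higher, against 0.953% and 2.01% of tested genes. The lists of the thick ascending limb, distal convoluted tubule and principal cells held 0 of either kind. The endothelial genes summed to 51.6 to 61.2 FPKM in the knockout and to 65.6 to 84.8 FPKM in wild-type, the podocyte genes to 55.4 to 80.6 FPKM in the knockout and to 71.4 to 101.7 FPKM in wild-type, and the stromal genes to 22.2 to 28.2 FPKM in the knockout and to 26.2 to 38.5 FPKM in wild-type. Every gene of these 3 lists was highest in wild-type replicate 3, the library in which 6 of the 10 members were lowest. Red cell genes summed to 412.7, 69.4 and 545.5 FPKM in knockout kidneys and to 43.3, 51.4 and 53.4 FPKM in wild-type kidneys. All 4 that were tested had an unadjusted limma p under 0.05 and groups apart with the knockout higher, against the same 0.953% and 2.01%. The part of cell makeup in the members' values was not tested. Acadl over Hadhb, a ratio formed within each library and chosen after its values were seen, was 2.037, 2.169 and 1.95 in knockout kidneys and 1.804, 1.879 and 1.602 in wild-type kidneys, so the groups did not overlap. It was the only one of 8 such ratios computed whose groups did not overlap, and it sets the member with the largest log2 fold change over the one with the smallest.

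**Figure D5:**
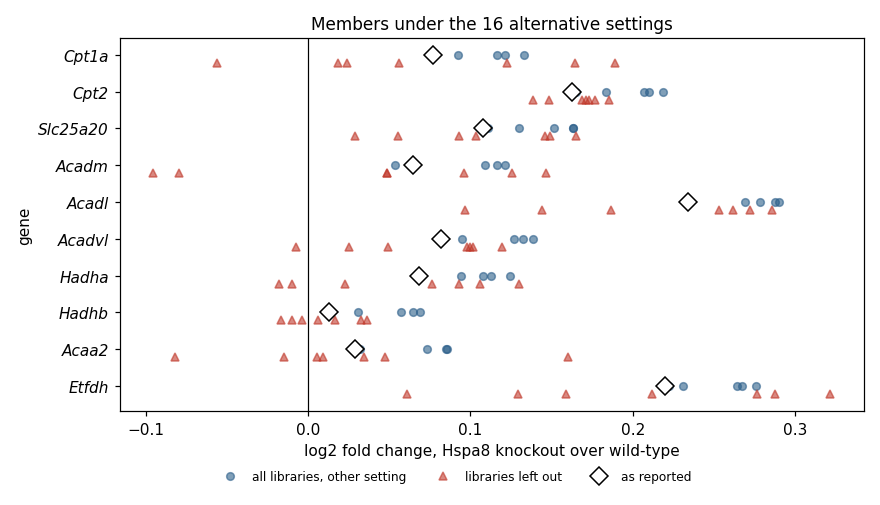
log2 fold change of each member (x axis) as reported (open diamonds), under settings that kept all libraries (blue) and with libraries left out (red). Cpt2, Slc25a20, Acadl and Etfdh stay above 0 throughout, and the other 6 members cross 0 in at least 1 setting that leaves out libraries.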

How the data were processed

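RNA of 6 mouse kidney samples was measured; per the labels' protocols, total RNA was purified and mRNA libraries were prepared. The deposited table holds the authors' FPKM for every symbol in each library, already divided by transcript length and mapped total. Per the submitters' processing notes the builds are GRCm38 and mm10; which aligner, quantifier and annotation were used is not given in the sources here. Samples were grouped by genotype label. Columns whose names hold A8 were read as the knockout samples with that number, since A8 ends HSPA8. Among genes under 0.1 FPKM no ratio between libraries (bins of 0.005 in log2) held over 0.762% of them, so no reads were recovered and depth is unknown.

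The test was limma 3.58.1 on log2(FPKM + 1) (R 4.3.3, group as the only term, variance trend, two-sided), over 12174 genes with a mean of at least 1 FPKM, with Benjamini-Hochberg adjustment at 0.05. Fold changes on this scale understate those of low genes. The members and lists were chosen with earlier results of these data known, and the median of a list is a description. Named pathway genes are the 3 of each list with the smallest p; Slc22a5, Ppara, Ppargc1a, Esrra, Sdha, Cs, Etfb, Bbox1 and Cpt1c were added after values were seen. Coordinates and promoters are RefSeq's GRCm38.p6, in which all 34714 symbols matched. Transcript length is that of the longest GENCODE M21 transcript, found for 96.6% of tested genes. Alternatives were pseudocount, filters, scalings, robust variance, the replicate number as a block, and libraries left out; removal of the length trend (lowess, span 0.3) was added after seeing the data. No pair of libraries held an identical value above 0.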

Additional observations from a re-analysis of the deposited data

How the results depend on the processing

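None of the 10 members and none of the 37 other pathway genes was called under any of the 16 alternatives. Of 160 values of single members under alternatives, 149 kept their direction and 11 reversed. Of 349 for named pathway genes, 327 kept it and 22 reversed. Robust variance, the replicate block and the other filters on low values leave a log2 fold change as it was. Direction could not reverse under them, so the counts of kept directions are partly fixed in advance. The median of the members, 0.0795, was 0.136 with library medians equalised, 0.024 without the pair of wild-type replicate 3 and knockout replicate 2, and 0.0488 to 0.142 with 1 library left out. Members with groups apart and the knockout higher numbered 2, against 2.01% of tested genes. They numbered 4 with library medians equalised (4.9% of tested genes), 4 with the length trend removed (5.4%), 4 without that pair (6.54%) and 2 to 5 with 1 library left out (3.18% to 6.73%). Acadm was apart with the knockout lower without that pair and without knockout replicate 2. Leaving libraries out cannot make separate groups overlap, so these counts could not fall there. Without that pair 5 members lay above 0, against 7 to 10 with 1 library left out. Over all genes 0 were called, and 5 without that pair and without knockout replicate 2, all of them globin genes (0 to 5 with 1 library left out); red cell markers were high in knockout replicates 1 and 3.

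Without that pair the log2 fold changes were -0.0953 for Acadm, -0.0077 for Acadvl, -0.0098 for Hadha, -0.0167 for Hadhb, -0.0147 for Acaa2, -0.00052 for Aldh9a1, -0.0041 for Acads, -0.0038 for Etfa, -0.0874 for Etfrf1 and -0.047 for Acot9. Without single libraries the ranges were -0.0561 to 0.189 for Cpt1a, -0.0795 to 0.147 for Acadm, -0.018 to 0.13 for Hadha, -0.0099 to 0.0366 for Hadhb, -0.0819 to 0.16 for Acaa2, -0.0122 to 0.134 for Aldh9a1, -0.109 to 0.0148 for Acadsb, -0.0228 to 0.128 for Etfrf1, -0.182 to 0.0666 for Etfbkmt, -0.0443 to 0.097 for Acot9, -0.13 to 0.0764 for Acot13, -0.206 to 0.113 for Ppara and -0.178 to 0.0283 for Slc22a5. Acadsb was 0.0081 with library medians equalised. Acot13 was 0.0197 with the length trend removed, 0.0225 with library medians and 0.0107 with library sums equalised. The cause of these reversals was not tested.

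With the replicate number as a block 0 members were called. The median of the members, 0.0795, could not change, because each number stands for 1 library in each group. Only the standard errors could, as for Cpt2 (0.0772 without the block and 0.122 with it). Same-numbered libraries did not consistently deviate together across genes (r of 0.307, -0.215 and -0.321 for numbers 1, 2 and 3). The numbers were therefore not taken to pair the samples. The highest r between a knockout and a wild-type library was 0.55, for knockout replicate 2 and wild-type replicate 3. Depth is unknown, so no counting error can be given, and 3 libraries per group limit the precision.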
